A study of Mus musculus with 19 samples.

Results

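The expression of 10 genes tied to heat production in brown and beige fat was followed in epididymal white adipose tissue (eWAT) of mice fed diets that differed in fat and in Mg2+. The genes were Ucp1, Cidea, Dio2, Ppargc1a, Ppargc1b, Prdm16, Cox8b, Cox7a1, Elovl3 and Ucp2. They were taken by symbol from the 24237 genes of the deposited expression table, where all 10 were found.

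Male C57BL6/J mice received 1 of 4 purified diets for 17 weeks. Fat, as palm oil, gave 10% of the energy in the low-fat diet (LFD) and 60% in the high-fat diet (HFD), and MgO made up 0.03% of the weight of the low-Mg2+ (LowMg) diets and 0.21% of the normal (NormMg) diets. RNA was sequenced from the eWAT of 5 mice on each of the LowMg-LFD, NormMg-HFD and LowMg-HFD and of 4 on the NormMg-LFD, numbered 2 to 5 in that last group, with 1 library per mouse. The labels give no genetic change in any group. The question was how dietary Mg2+ and fat, alone and together, alter gene expression in this depot.

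Brown and beige adipocytes burn fatty acids to release heat. Noradrenaline, acting through β-adrenergic receptors and cAMP, induces the coactivator PGC-1α and the uncoupling protein UCP1, which lets protons back across the inner mitochondrial membrane without ATP synthesis. Epididymal fat of the mouse is a white depot that forms few beige cells.

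Depth was even, with 12986441 to 13027028 reads per mouse, of which 86.12% to 90.41% were mapped. Values are FPKM (fragments scaled by transcript length and by the number of mapped fragments), which can therefore be compared between genes. All 10 adipocyte markers examined passed the expression filter, and Adipoq, the adiponectin gene, lay between 1072 and 2569 FPKM. Some mice also carried RNA of neighbouring tissues. The summed FPKM of 12 exocrine pancreas markers was 1813 in NormMg-LFD mouse 3 and 12.4 to 52.6 in the other mice. The sum of 8 testis markers was 3468 in LowMg-HFD mouse 4, 725 in NormMg-LFD mouse 5, 310 in NormMg-LFD mouse 4, 172 in LowMg-LFD mouse 1 and 1.17 to 45.8 in the rest, and that of 10 epididymis markers was 146 in LowMg-LFD mouse 4. The study left out a LowMg-HFD mouse for pancreatic tissue, but the labels do not say which. No mouse labelled LowMg-HFD stood out in pancreas markers (21.1 to 44.6 FPKM, beside 34.4 to 52.6 in NormMg-HFD mice), and the high sum was in a mouse labelled NormMg-LFD. All mice were kept here. Without the 3 mice highest in pancreas, epididymis and testis markers, an alternative chosen after seeing the data, 27 of the 37 calls made over 8 FPKM on the pathway and related genes described below were kept and 10 were lost, and each loss is given beside its gene.

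Averaged over all 19 mice, Ucp2 stood far above the other thermogenic genes, at 354 FPKM, which is above 99.3% of genes. Cox8b followed with 20.4 FPKM, Cox7a1 with 7.39, Cidea with 4.49, Prdm16 with 2.65, Ppargc1a with 1.82 and Ppargc1b with 1.72. Elovl3 (0.432 FPKM), Ucp1 (0.341) and Dio2 (0.320) were lowest. The lowest Ucp2 value of any mouse, 97.1 FPKM, exceeded the highest Cox8b value, 44.4. Every other pair of neighbours in this order overlapped between mice. Of the 10 genes, 2 (Ucp2 and Cox8b) passed the filter of 8 FPKM in at least 4 mice of a group, 5 more passed a filter of 1 FPKM, and Elovl3, Ucp1 and Dio2 passed neither.

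**Figure D1:**
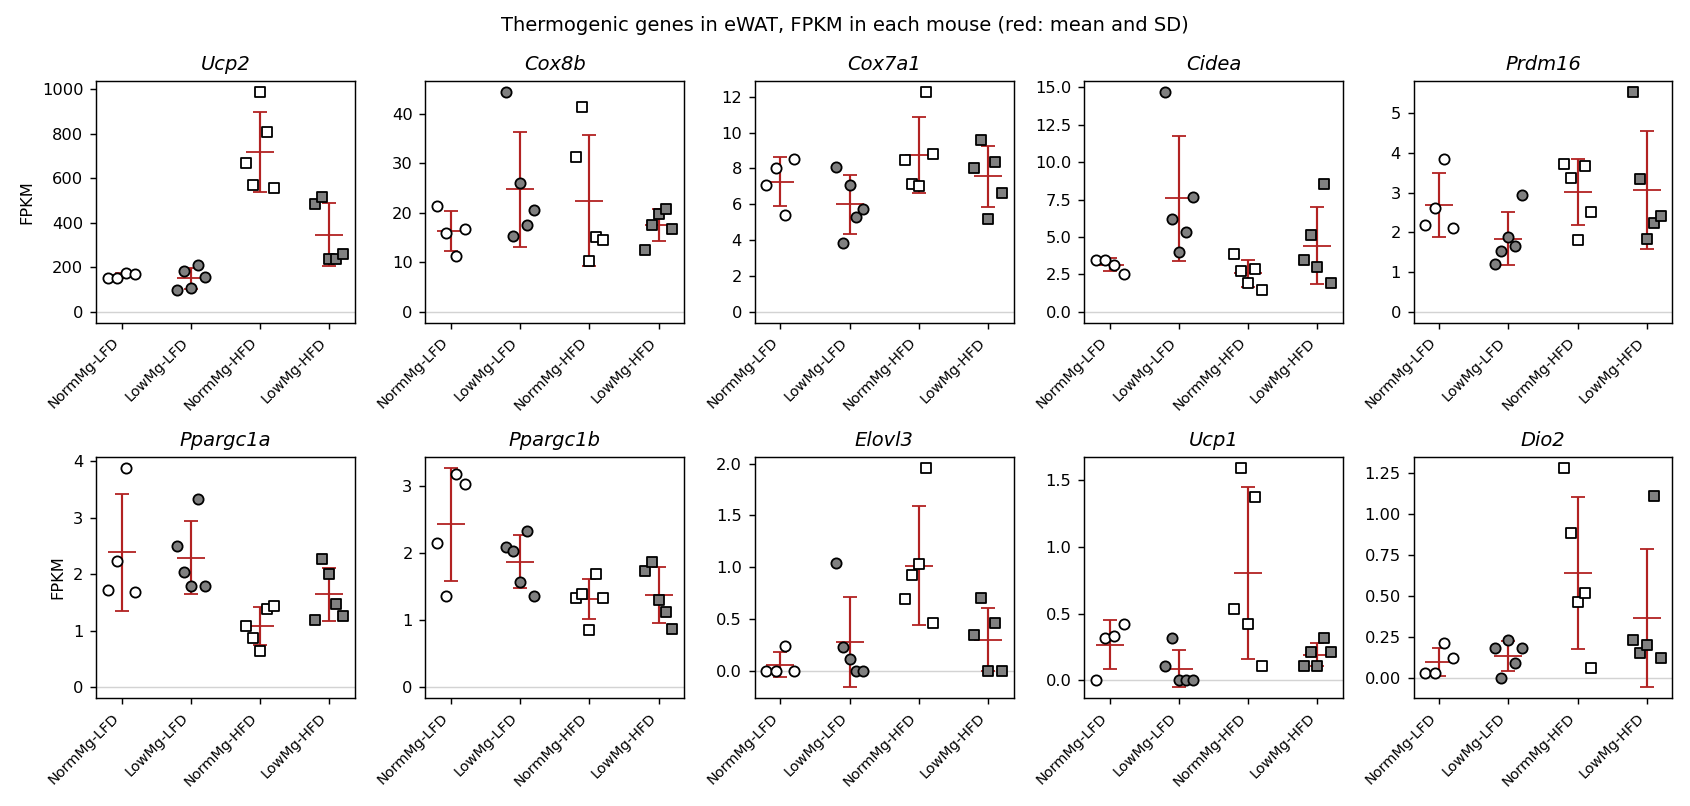
FPKM of each thermogenic gene (vertical axes, a separate linear scale per gene) in the 4 diet groups, with 1 symbol per mouse and the mean and SD in red. Ucp2 was at 558 to 988 FPKM in NormMg-HFD mice and at or below 518 in every other mouse, while Ucp1, Elovl3 and Dio2 stayed below 2 FPKM in every mouse.

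Between the NormMg diets, 3 of the 7 genes tested at over 1 FPKM changed with fat: Ucp2 rose 4.29-fold, and Ppargc1a and Ppargc1b fell. In that comparison 30% of the 13454 genes tested were called, 19.2% higher and 10.8% lower. Between the HFD groups, 1 of the 7, Ucp2, was called and was lower on low Mg2+, where 12.5% of all genes were called, 8.95% in that direction. Between the LowMg diets, Ucp2 was again the 1 gene of the 7 called, and was higher on the HFD, where 10.4% of all genes were called, 8.24% in that direction. Between the LFD groups limma called none of the 7, and 0 of the 13454 genes (0%). At an unadjusted p under 0.05 these numbers were 1, Cidea, and 850 (6.32%). The median log2 difference of the 7 genes was 0.12 for fat on NormMg diets, beside 0.03 over all genes, and -0.28 for fat on LowMg diets, beside 0.10. It was -0.02 for Mg2+ on the HFD, beside -0.02, and -0.17 for Mg2+ on the LFD, beside -0.07. The split of all called genes depended on the scaling between mice. With quantile normalization it was 2087 higher and 2075 lower for fat on NormMg diets (2580 and 1453 without it), 566 and 566 for fat on LowMg diets (1108 and 297), where the median of all genes moved from 0.10 to -0.03, and 679 and 1012 for Mg2+ on the HFD (475 and 1204). These comparisons share groups and are not independent of each other, and in a bulk tissue fewer cells of a type and less RNA per cell cannot be told apart.

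**Figure D2:**
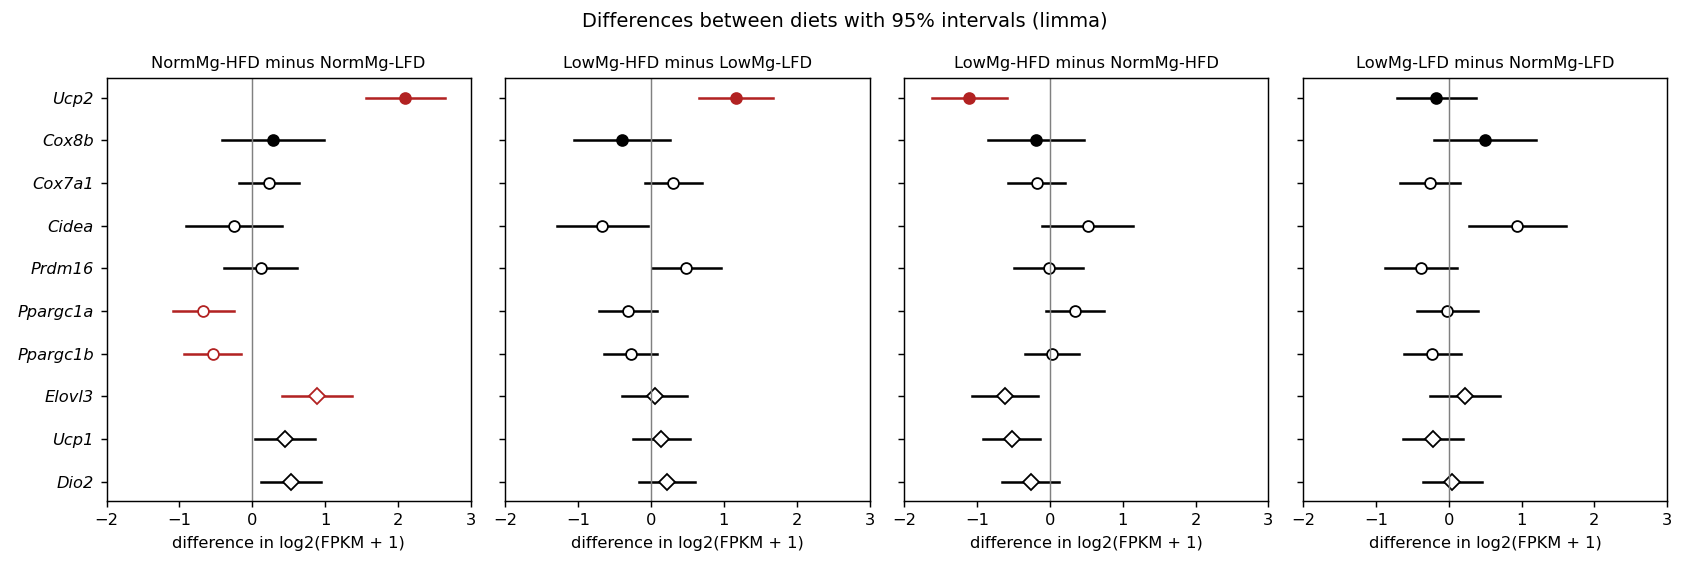
Difference in log2(FPKM + 1) with its 95% interval (horizontal axes) for each gene in the 4 diet comparisons, first group minus second; filled circles were fitted among genes over 8 FPKM, open circles among genes over 1 FPKM and diamonds among all genes. Red marks an adjusted p under 0.05, which Ucp2 reached in 3 comparisons and Ppargc1a, Ppargc1b and Elovl3 in NormMg-HFD against NormMg-LFD.

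The classical effector of thermogenesis, Ucp1 (chr8:83290352-83298452, plus strand, GRCm38), was barely present. It was listed at 0, 0.32, 0.33 and 0.42 FPKM in the NormMg-LFD mice and at 0.11, 0.32, 0, 0 and 0 in the LowMg-LFD mice. It was at 0.53, 1.59, 0.42, 1.37 and 0.11 FPKM in the NormMg-HFD mice and at 0.11, 0.21, 0.11, 0.32 and 0.21 in the LowMg-HFD mice. NormMg-HFD mice 2 and 4 were the highest of all, and every pair of diet groups compared overlapped. The values fell on steps of about 0.109 FPKM, and if 1 step is 1 read the 5 NormMg-HFD mice held about 38 reads together, the NormMg-LFD mice 10, the LowMg-HFD mice 9 and the LowMg-LFD mice 4. This reading of the steps is an estimate, taken from the rounded values. In a fit to all genes, the difference in log2(FPKM + 1) was -0.53 (SE 0.18, limma adjusted p = 0.122) for LowMg-HFD against NormMg-HFD and 0.45 (SE 0.20, adjusted p = 0.154) for NormMg-HFD against NormMg-LFD. Neither passed in this fit. Without NormMg-HFD mouse 5, the lowest of its group, the differences were -0.68 (adjusted p = 0.0213) and 0.60 (adjusted p = 0.0259), and the second also passed after quantile normalization (0.61, adjusted p = 0.0315).

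Ucp2 (chr7:100493337-100502020, plus strand), a relative of Ucp1 found in many tissues and in immune cells, was called in 3 of the 4 diet comparisons. Its level was 154, 151, 176 and 172 FPKM in the NormMg-LFD mice and 97.1, 181, 108, 210.0 and 156 in the LowMg-LFD mice. It was 669, 571, 988, 807 and 558 FPKM in the NormMg-HFD mice and 484, 518, 237, 238 and 258 in the LowMg-HFD mice. The NormMg-HFD mice lay above all others. Within the LowMg-HFD group, mice 1 and 2 lay close to the lowest NormMg-HFD mice, and mice 3, 4 and 5 close to the highest LFD mice.

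On NormMg diets Ucp2 rose from 163 ± 12.7 to 719 ± 181 FPKM (mean ± SD, n = 4 and n = 5) on the HFD, a log2 difference of 2.10 (SE 0.26, 95% interval 1.56 to 2.64, adjusted p = 4.79e-06). On the HFD it was 2.15-fold lower on low Mg2+, at 347 ± 141 FPKM (log2 difference -1.11, SE 0.24, adjusted p = 0.00489). On LowMg diets it was 2.25-fold higher with high fat (1.17, SE 0.24, adjusted p = 0.00353) than at 151 ± 47.8 FPKM on the LFD. The groups did not overlap in any of these 3 comparisons, as was so for 32.1%, 12.8% and 9.3% of the 8336 genes over 8 FPKM. On the LFD the Mg2+ difference was -0.17 (95% interval -0.72 to 0.37, adjusted p = 0.922). The interaction of Mg2+ and fat was -0.93 (SE 0.36, 95% interval -1.68 to -0.19) and did not pass after adjustment (limma adjusted p = 0.148), so that the Mg2+ effect was not shown to differ between the fat levels. The 3 calls held under every alternative run, with adjusted p values up to 5.95e-05 for fat on NormMg diets, 0.0201 for Mg2+ on the HFD and 0.0294 for fat on LowMg diets.

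Macrophage markers moved with Ucp2. All 12 passed the filter of 8 FPKM, but Itgax, Fcgr1, Trem2 and Gpnmb did so only through the HFD mice, in which they were high. For NormMg-HFD against NormMg-LFD, 11 of the 12 were higher and 1 lower. For low against normal Mg2+ on the HFD 11 were lower, and for LowMg-HFD against LowMg-LFD 8 were higher. Of the 8 that passed on both fat levels these counts were 7 higher and 1 lower, 7 lower, and 5 higher. In the same order, 37.4%, 18.5% and 15.9% of the 8336 genes over 8 FPKM were called in either direction. Itgax, which had the lowest single value of the 12, was at 1.59 to 3.96 FPKM in the LFD mice. The summed level of the 12 was 501 to 619 FPKM in NormMg-LFD mice, 380 to 739 in LowMg-LFD mice, 2168 to 3431 in NormMg-HFD mice and 635 to 2000 in LowMg-HFD mice. The 2 LowMg-HFD mice high in Ucp2, mice 1 and 2, had sums of 2000 and 1706 FPKM, and the other 3 had sums of 949, 635 and 971. Cd68, a lysosomal protein of macrophages, was at 209 and 192 FPKM in mice 1 and 2 and at 58.4, 56.7 and 66.9 in mice 3 to 5. The part of the macrophage markers in the Ucp2 differences was not tested.

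**Figure D3:**
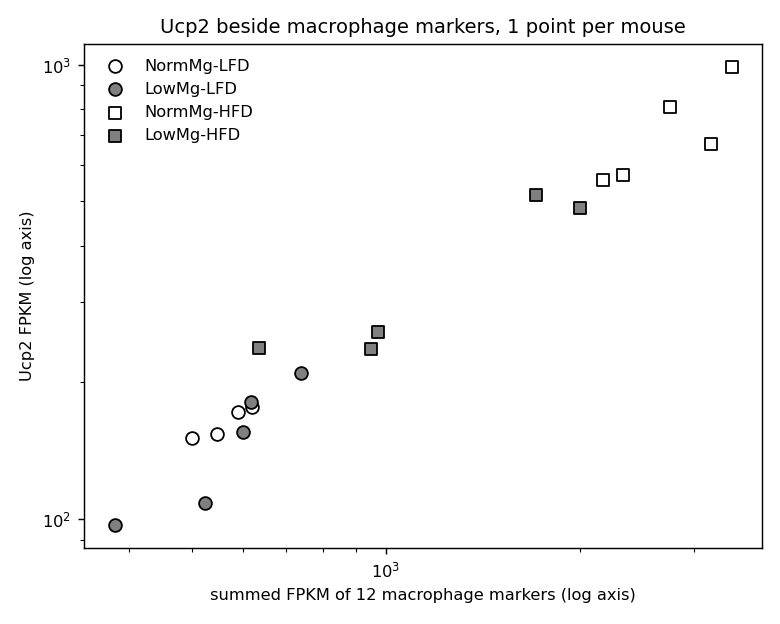
Ucp2 FPKM (vertical log axis) against the summed FPKM of 12 macrophage markers (horizontal log axis), with 1 symbol per mouse. The 5 NormMg-HFD mice lie at the top right, with marker sums of 2168 to 3431 FPKM, and LowMg-HFD mice 1 and 2 lie apart from the other 3 LowMg-HFD mice on both axes.

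The 3 tested genes most like Ucp2 over the 19 mice were Plekho1, Tmsb4x, which encodes the actin-binding thymosin β4, and Lgmn, a lysosomal protease. Pearson's r of log2(FPKM + 1) was 0.99 for each. With the group means removed it was 0.95 for Plekho1, 0.95 for Tmsb4x and 0.95 for Lgmn. These values are descriptions over mice that share diets and libraries.

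Of 20 relatives of the thermogenic genes 12 were tested at over 8 FPKM, and 3 were higher and 3 lower with fat on NormMg diets, where 37.4% of all genes at this level were called. Ucp3, the muscle-type relative of Ucp2, was at 15.2, 14.2, 9.11 and 20.1 FPKM in the NormMg-LFD mice and at 8.73, 10.5, 8.69, 11.2 and 12.99 in the NormMg-HFD mice, and the difference of -0.42 was not called (adjusted p = 0.182). In its 1 call, on the HFD, it was higher on low Mg2+ (19.7, 19.9, 28.9, 11.5 and 20.03 FPKM), by 0.84 on the log2 scale (SE 0.23, adjusted p = 0.0150), although LowMg-HFD mouse 4 lay within the NormMg-HFD range. The adenine nucleotide carriers, which can also leak protons, were both called for fat on NormMg diets, in opposite directions. Slc25a4 was lower by a log2 difference of -0.35 (adjusted p = 0.00186) and Slc25a5 higher by 0.36 (adjusted p = 0.0121). Slc25a5 was also lower on low Mg2+ within the HFD (-0.33, adjusted p = 0.0318, and 0.0711 without the 3 mice).

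Ppargc1a (chr5:51454250-51567726, minus strand) encodes PGC-1α, the coactivator that drives mitochondrial biogenesis and the thermogenic genes. Its level was 1.73, 2.24, 3.88 and 1.69 FPKM in the NormMg-LFD mice and 1.08, 0.88, 0.64, 1.39 and 1.44 in the NormMg-HFD mice. It was 2.5, 2.04, 1.79, 3.32 and 1.79 FPKM in the LowMg-LFD mice and 1.19, 2.27, 2.01, 1.48 and 1.26 in the LowMg-HFD mice. The NormMg-HFD mice lay below every LFD mouse, and the LowMg-HFD mice spanned both ranges. On NormMg diets Ppargc1a fell with fat by 0.67 on the log2(FPKM + 1) scale (SE 0.20, 95% interval -1.09 to -0.25, adjusted p = 0.0165), and 27% of the 13454 genes likewise had groups that did not overlap. The call rested on NormMg-LFD mouse 4, the highest of all, whose testis marker sum was 310 FPKM: without it the difference was -0.48 (adjusted p = 0.0713). NormMg-LFD mouse 5, with a testis sum of 725, was the lowest of its group in Ppargc1a, and LowMg-HFD mouse 4, with 3468, was at 1.48 FPKM. The part of the testis markers was not tested. For Mg2+ on the HFD the difference was 0.34 (95% interval -0.06 to 0.74, adjusted p = 0.267).

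Ppargc1b, which encodes the related coactivator PGC-1β, moved in the same direction. It was at 2.15, 1.37, 3.19 and 3.03 FPKM in the NormMg-LFD mice and at 1.33, 1.4, 0.86, 1.69 and 1.33 in the NormMg-HFD mice. The groups overlapped through NormMg-LFD mouse 3, the mouse with pancreas RNA. The fall with fat was 0.54 on the log2(FPKM + 1) scale (SE 0.19, adjusted p = 0.0349), and it was lost in 8 of 18 alternatives, with adjusted p values from 0.0083 to 0.113. Without any one of NormMg-LFD mice 2, 4 and 5 or NormMg-HFD mice 1, 3 and 5 it did not pass. It was at 2.1, 2.03, 1.58, 2.33 and 1.36 FPKM in the LowMg-LFD mice and at 1.74, 1.87, 1.31, 1.12 and 0.87 in the LowMg-HFD mice, and the Mg2+ difference on the HFD was 0.03 (95% interval -0.34 to 0.40, adjusted p = 0.938).

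Most adipocyte markers were lower in the comparison in which both coactivators fell. Of 10 adipocyte markers, all tested, 8 were lower and 1 higher with fat on NormMg diets. In that comparison 37.4% of the 8336 genes over 8 FPKM were called. On the HFD, where 18.5% of these genes were called between the Mg2+ levels, 7 markers were higher on low Mg2+ and none was lower. Their summed level was 17814 to 23670 FPKM in NormMg-LFD mice, 18817 to 27886 in LowMg-LFD mice, 12088 to 16257 in NormMg-HFD mice and 15626 to 19896 in LowMg-HFD mice. None was near 0, and their part in the coactivator differences was not tested.

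Prdm16 (chr4:154316125-154636873, minus strand), a zinc-finger factor that directs precursors towards brown and beige fat, was called in no comparison. It was at 2.18, 2.61, 3.84 and 2.11 FPKM in the NormMg-LFD mice, 1.19, 1.52, 1.87, 1.65 and 2.95 in the LowMg-LFD mice, 3.71, 3.37, 1.81, 3.66 and 2.5 in the NormMg-HFD mice and 5.53, 3.35, 1.83, 2.23 and 2.42 in the LowMg-HFD mice. In each comparison the groups overlapped. The difference for fat on LowMg diets was 0.48 (SE 0.22, 95% interval 0.01 to 0.95, adjusted p = 0.189), and 0.30 without LowMg-HFD mouse 1, the highest of all.

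Dio2 (chr12:90724552-90738438, minus strand) encodes the deiodinase that makes active thyroid hormone inside brown adipocytes. It was at 0.03, 0.03, 0.21 and 0.12 FPKM in the NormMg-LFD mice and at 0.18, 0, 0.23, 0.09 and 0.18 in the LowMg-LFD mice. It was at 1.28, 0.88, 0.46, 0.52 and 0.06 FPKM in the NormMg-HFD mice and at 0.23, 0.15, 0.2, 1.11 and 0.12 in the LowMg-HFD mice. Of the NormMg-HFD mice 4 lay above every LFD mouse, and mouse 5 lay among them. The difference for fat on NormMg diets was 0.54 (SE 0.19, adjusted p = 0.0772), and 0.68 without NormMg-HFD mouse 5 (adjusted p = 0.0146). It also passed with each mouse centred on its median (0.65, adjusted p = 0.023) and after quantile normalization (0.67, adjusted p = 0.00516). LowMg-HFD mouse 4, whose value stood apart from its group, was also the mouse highest in testis markers, and the part of those markers was not tested.

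Elovl3 (chr19:46131897-46135694, plus strand), a fatty acid elongase induced by cold in brown fat, was listed at 0, 0, 0.24 and 0 FPKM in the NormMg-LFD mice and at 1.04, 0.23, 0.12, 0 and 0 in the LowMg-LFD mice. It was at 0.69, 0.93, 1.03, 1.96 and 0.46 FPKM in the NormMg-HFD mice and at 0.35, 0.7, 0, 0.46 and 0 in the LowMg-HFD mice. Every NormMg-HFD mouse lay above every NormMg-LFD mouse. If a step of about 0.118 FPKM is 1 read, the groups held about 2, 12, 44 and 13 reads in that order, so that each value rests on few reads. In the fit to all 24237 genes, where 15.1% were called for fat on NormMg diets, 9.72% as higher, and 16.3% had groups that did not overlap, Elovl3 rose by 0.89 on the log2(FPKM + 1) scale (SE 0.23, 95% interval 0.41 to 1.37, adjusted p = 0.0111). It passed in all 17 alternatives, with adjusted p values from 0.00665 to 0.034. The size depended on the pseudocount, being 2.90 with 0.1 in place of 1, and 0.74 to 1.01 in the other alternatives. The Mg2+ difference on the HFD was -0.62 (SE 0.21, 95% interval -1.07 to -0.17, adjusted p = 0.115). Macrophage markers, given above, were also higher in the NormMg-HFD mice, and their part was not tested.

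Of the NormMg-HFD group, mouse 5 was the lowest in Ucp1, Ucp2, Cidea, Dio2 and Elovl3. It was the highest in Ppargc1a (1.44 FPKM) and not the lowest in Ppargc1b, Prdm16, Cox8b or Cox7a1. The same mouse had the lowest macrophage sum of the group (2168 FPKM) and the highest adipocyte sum (16257 FPKM). This mouse was singled out after its values were seen, and the part of these markers was not tested.

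The more widely used elongase Elovl6, which lengthens palmitate, was at 21.8, 14.4, 13.5 and 13.4 FPKM in the NormMg-LFD mice and at 9.68, 9.33, 7.01, 11.1 and 5.46 in the NormMg-HFD mice. These groups did not overlap, and the difference of -0.83 was not called (SE 0.40, adjusted p = 0.117). It was at 71.4, 9.35, 36.4, 12.3 and 15.4 FPKM in the LowMg-LFD mice and at 5.26, 8.24, 5.28, 9.15 and 6.63 in the LowMg-HFD mice, without overlap, and was lower with fat by a log2 difference of -1.55 (SE 0.38, adjusted p = 0.00939). It passed the filter of 8 FPKM only through the LFD mice, and in the fit over 1 FPKM, which it passed on both fat levels, the adjusted p was 0.0141. The LowMg-LFD mice 1 and 3 were far above the other 3.

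Cidea, on chromosome 18, encodes a lipid droplet protein that is abundant in brown adipocytes. It was at 3.44, 3.49, 3.11 and 2.55 FPKM in the NormMg-LFD mice and at 14.7, 6.2, 4.02, 5.34 and 7.68 in the LowMg-LFD mice. It was at 3.88, 2.7, 1.92, 2.83 and 1.49 FPKM in the NormMg-HFD mice and at 3.44, 5.16, 2.99, 8.51 and 1.95 in the LowMg-HFD mice. Every LowMg-LFD mouse lay above every NormMg-LFD mouse, which held for 1.66% of the 13454 genes in either direction, and mouse 1, with a testis marker sum of 172 FPKM, was the highest of all. The difference was 0.94 on the log2(FPKM + 1) scale (SE 0.32, 95% interval 0.28 to 1.60) and did not pass after adjustment (limma adjusted p = 0.765, and from 0.295 to 0.999 in the alternatives). For fat on LowMg diets the difference was -0.67 (SE 0.30, adjusted p = 0.170). Without LowMg-HFD mouse 4, the highest of its group and of all mice in testis markers, it was -0.90 (adjusted p = 0.0417). Without the 3 mice highest in pancreas, epididymis and testis markers it was -0.98 (adjusted p = 0.0474). With each mouse of these groups left out in turn it ran from -0.90 to -0.42. NormMg-LFD mouse 5, with a testis sum of 725, was the lowest of its group, and the part of the testis markers in the Cidea levels was not tested.

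Cidec, the white-fat relative of Cidea that fuses lipid droplets, was at 1054 to 2501 FPKM over all mice. The ratio of Cidea to Cidec FPKM was 0.192% ± 0.0782 (SD, n = 4) in NormMg-LFD mice, 0.361% ± 0.198 (n = 5) in LowMg-LFD mice, 0.147% ± 0.0550 (n = 5) in NormMg-HFD mice and 0.203% ± 0.137 (n = 5) in LowMg-HFD mice. Cidec was called in no comparison.

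Cox8b and Cox7a1 encode the heart, muscle and brown fat forms of small subunits of cytochrome c oxidase, the last complex of the respiratory chain. Cox8b (chr7:140898945-140900446, minus strand) was at 21.4, 15.9, 11.4 and 16.7 FPKM in the NormMg-LFD mice, 44.4, 15.3, 25.9, 17.5 and 20.5 in the LowMg-LFD mice, 31.2, 41.3, 10.3, 15.1 and 14.5 in the NormMg-HFD mice and 12.5, 17.4, 19.8, 20.8 and 16.7 in the LowMg-HFD mice. LowMg-LFD mouse 1, also the highest in Cidea, and NormMg-HFD mice 1 and 2 stood above the rest, and all groups overlapped. No difference passed. That for Mg2+ on the LFD was 0.50 (SE 0.33, adjusted p = 0.823). With each mouse left out in turn it ran from 0.27, without LowMg-LFD mouse 1, to 0.64.

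Cox7a1 (chr7:30184144-30186078, plus strand) was the steadiest of the 10 genes, with a 3.21-fold span over all mice. It lay at 5.4 to 8.54 FPKM in NormMg-LFD mice, 3.82 to 8.05 in LowMg-LFD mice, 6.99 to 12.3 in NormMg-HFD mice and 5.2 to 9.59 in LowMg-HFD mice. Adjusted p values were 0.340 for fat on LowMg diets, 0.418 for fat on NormMg diets, 0.570 for Mg2+ on the HFD and 0.855 for Mg2+ on the LFD. Both genes are also used by skeletal muscle. The sum of 12 skeletal muscle markers was 10.7 to 37.7 FPKM over all mice, of which Acta1, skeletal α-actin, held 2.93 to 24.9. Pvalb reached 11.1 FPKM, with its highest values in NormMg-HFD mice, while Ckm, the muscle creatine kinase, was at or below 0.56 and the myosin Myh4 at or below 0.11. The part of these markers in the levels of Cox8b and Cox7a1 was not tested.

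The forms of these subunits that most tissues use were far more abundant. Cox8a was at 431 to 705 FPKM and Cox7a2 at 105 to 133. The ratio of Cox8b to Cox8a FPKM was 2.63% ± 0.481 (SD, n = 4) in NormMg-LFD mice, 3.79% ± 1.53 (n = 5) in LowMg-LFD mice, 4.91% ± 3.08 (n = 5) in NormMg-HFD mice and 3.24% ± 0.723 (n = 5) in LowMg-HFD mice. The ratio of Cox7a1 to Cox7a2 was 5.96% ± 0.949 (n = 4), 4.77% ± 1.18 (n = 5), 7.98% ± 2.13 (n = 5) and 6.56% ± 1.75 (n = 5) in the same order. Cox8a was lower with fat on NormMg diets, by a log2 difference of -0.39 (SE 0.09, adjusted p = 0.00235), and Cox7a2 was called in no comparison.

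**Figure D4:**
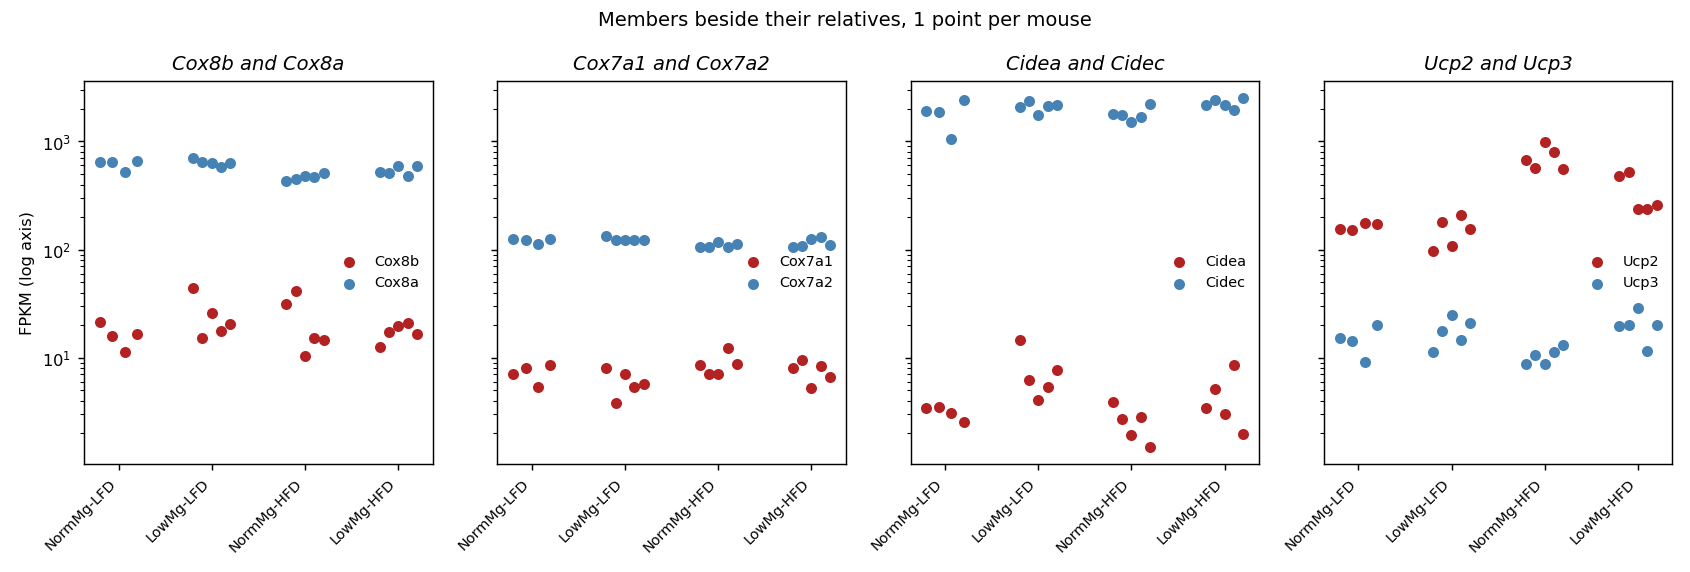
FPKM (vertical log axis) of Cox8b, Cox7a1, Cidea and Ucp2 in red and of a relative of each in blue, by diet group, with 1 point per mouse. Cox8a, Cox7a2 and Cidec lie above their thermogenic counterparts in every mouse, and Ucp2 lies above Ucp3 in every mouse.

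The 3 genes most like Cox8b over the 19 mice were Cpt2, which releases fatty acids for oxidation inside mitochondria (Pearson's r = 0.79), Tmem161a (0.73) and mt-Nd2, a mitochondrially encoded subunit of complex I (0.73). With the group means removed the values were 0.79, 0.73 and 0.73. These are descriptions over mice, with no test.

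The interaction of Mg2+ and fat passed the threshold for none of the 10 genes. Besides that of Ucp2, the adjusted p values ran from 0.279 for Elovl3 to 0.914 for Cox7a1, and 1.25% of genes over 8 FPKM were called. At an unadjusted p under 0.05, 2 of the 10 passed, Ucp2 and Elovl3, as did 20.4% of genes over 8 FPKM and 11.7% of all genes.

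Upstream of these genes, Adrb3, the β3-adrenergic receptor through which noradrenaline acts on adipocytes, was called in 3 of the 4 diet comparisons. It was at 597, 672, 358 and 408 FPKM in the NormMg-LFD mice and at 122, 62.1, 67.9, 58.4 and 124 in the NormMg-HFD mice, a log2 difference of -2.57 (SE 0.33, adjusted p = 7.4e-06). In the LowMg-HFD mice it was at 231, 117, 392, 139 and 398 FPKM, higher than in NormMg-HFD mice by 1.45 (SE 0.31, adjusted p = 0.00439). For LowMg-HFD against LowMg-LFD the log2 difference was -1.22 (limma adjusted p = 0.0122). Of 10 adrenergic and cAMP genes, 8 were tested, and for fat on NormMg diets Adrb3 was lower and Adcy3, an adenylyl cyclase, higher (0.92, adjusted p = 0.000357), where 37.4% of the 8336 genes over 8 FPKM were called. For Mg2+ on the HFD, Adrb3 was the 1 gene called, where 18.5% of genes were. Most adipocyte markers, given above, moved the same way as Adrb3 in both comparisons (8 of 10 lower and 1 higher, then 7 of 10 higher). For fat on LowMg diets, where 15.9% of genes were called, 3 of the 10 were lower and 1 higher. The part of the adipocyte markers was not tested.

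Among 15 transcription partners of the thermogenic programme, 10 were tested at over 8 FPKM. For fat on NormMg diets, where 37.4% of all genes at this level were called, 2 were higher, Cebpb (1.15, adjusted p = 8.98e-05) and Esrra, an oestrogen-related receptor of mitochondrial genes (0.29, adjusted p = 0.0460), and 2 were lower, Pparg (-0.66, adjusted p = 0.00724) and Rxra (-0.46, adjusted p = 0.000605). For Mg2+ on the HFD, where 18.5% were called, Cebpb (-0.57, adjusted p = 0.0328) and Esrra (-0.32, adjusted p = 0.0424) were lower and Rxra was higher (0.35, adjusted p = 0.00889). Without the 3 mice the Mg2+ call of Cebpb (adjusted p = 0.0972) and both of Esrra (0.157 for fat, 0.0553 for Mg2+) were lost. Both Esrra calls were also lost in the fit over 1 FPKM (adjusted p = 0.0552 and 0.0547), in which 14 partners were tested, 1 higher and 3 lower for fat on NormMg diets and 2 higher and 1 lower for Mg2+ on the HFD. Pparg, the receptor that commits cells to the adipocyte fate, is also an adipocyte marker. Macrophage and adipocyte markers, given above, also moved in both comparisons, and their part in these differences was not tested.

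Among 10 repressors of the programme, 9 were tested. For fat on NormMg diets 3 were called, beside 37.4% of all genes. Grk2, a kinase that desensitizes β-adrenergic receptors, was higher (0.71, adjusted p = 0.000343), and Nrip1 (-0.65, adjusted p = 0.0388), a corepressor of nuclear receptors, and Foxo1 (-0.43, adjusted p = 0.0103) were lower. On the HFD Grk2 was lower on low Mg2+ (-0.39, adjusted p = 0.0378). Without the 3 mice this call (adjusted p = 0.0849) and that of Nrip1 (adjusted p = 0.0665) were lost. Zfp423, which holds white adipocytes back from a beige fate, was higher with fat on LowMg diets (0.42, adjusted p = 0.0269), where 15.9% of the 8336 genes were called.

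Of 18 further brown and beige markers, 5 passed the filter of 8 FPKM and 11 that of 1 FPKM. Ebf2, a factor of brown and beige precursors, was lower with fat on both Mg2+ levels (-0.89, adjusted p = 0.00218, and -0.69, adjusted p = 0.0221). It passed the filter of 8 FPKM only through the LFD mice, and that of 1 FPKM on both fat levels (adjusted p = 0.00273 and 0.0293). Slc36a2, an amino acid transporter of the brown and beige cell surface, was higher with fat on NormMg diets (0.61, adjusted p = 0.0244) and lower on low Mg2+ within the HFD (-0.57, adjusted p = 0.0432, and 0.0566 in the fit over 1 FPKM, where it did not pass). Clstn3 was higher with fat on NormMg diets (0.82, adjusted p = 0.0292). Without the 3 mice Ebf2 lost its call on LowMg diets (adjusted p = 0.0674) and Slc36a2 both of its calls (0.0604 for fat, 0.0822 for Mg2+). For fat on NormMg diets, 2 were higher and none lower of the 3 that passed the filter of 8 FPKM on both fat levels, where 37.4% of all genes were called. Over 1 FPKM, where 30% were called, 3 were higher and 1 lower of the 10 that did so. Otop1, a proton channel known from brown fat, is left out of these counts. It passed the filter of 1 FPKM only through the HFD mice, in which it was high, and is named after its values were seen, so its levels are a description with no test. It was at 0.33, 0, 0.26 and 1.24 FPKM in the NormMg-LFD mice, 1.25, 0.33, 0.33, 0.11 and 0.83 in the LowMg-LFD mice, 7.91, 8.34, 5.62, 5.96 and 4.17 in the NormMg-HFD mice and 1.73, 2.98, 0.74, 2.98 and 1.81 in the LowMg-HFD mice. The NormMg-HFD mice lay above all others. Most macrophage markers were higher and most adipocyte markers lower with fat on NormMg diets, as given above. Their part in the levels of these brown and beige markers was not tested.

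Creatine cycling is a route of heat production without UCP1. Of 10 creatine and calcium cycling genes 4 were tested at over 8 FPKM, and 2 were called on NormMg diets, beside 37.4% of all genes. Ckb, a creatine kinase, was higher by 1.05 (adjusted p = 0.0294) and Slc6a8, the creatine transporter, by 1.02 (adjusted p = 0.0168). On LowMg diets, where 15.9% of genes were called, Slc6a8 (1.00, adjusted p = 0.0297) and Gamt, the last enzyme of creatine synthesis (0.61, adjusted p = 0.0393), were higher, and Gamt was not called in the fit over 1 FPKM (adjusted p = 0.0536) or without the 3 mice (adjusted p = 0.146). For Mg2+ on the HFD none of the 4 was called. Slc6a8 was at 27.6, 23.5, 11.7, 21.7 and 12.7 FPKM in the LowMg-HFD mice, of which mice 1 and 2 had the highest macrophage sums and mouse 4 the lowest (635 FPKM). Macrophage markers, given above, were also higher with fat, and their part in these differences was not tested. Ckb was at 40.0, 63.7, 130 and 33.1 FPKM in the NormMg-LFD mice and at 151, 99.2, 170 and 120 in NormMg-HFD mice 1 to 4 and 84.6 in mouse 5, so that the groups overlapped through NormMg-LFD mouse 4.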

How the data were processed

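RNA of eWAT was sequenced in 19 mice, 1 library each. The authors mapped the reads and computed gene expression with RSEM 1.2.31, and they deposited FPKM for 24238 genes. The submitters' processing notes also name HISAT, Bowtie2 and GRCm38 (mm10). Read numbers and the percent of reads mapped were deposited by the authors beside the table. A gene with a cell that is not a number was left out (1), and 26 symbols changed to dates were restored. Mice were grouped by their labels. FPKM are not counts, so no count test was run, and counting error is known only as far as the value steps show it. Where a symbol had more than 1 identifier (Gatm, Itgam), the more abundant was read, and Gyk was read as Gk, its current symbol.

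Differences were fitted on log2(FPKM + 1) with an intensity trend in limma 3.58.1 (R 4.3.3), all 4 groups together, over genes above 8 FPKM on average and in 4 or more mice of some group (8336 genes). Genes under this filter were fitted among 13454 genes with a limit of 1, and Ucp1, Dio2 and Elovl3, planned for levels alone, in the unfiltered alternative of 24237 genes. Tests are two-sided, with Benjamini-Hochberg adjustment over the genes of each fit and a threshold of 0.05. Fold changes are on the log2(FPKM + 1) scale, which understates changes of low genes. The mice shared cages during acclimatization, and which of those sequenced were caged together is not given in the sources used here. The fit treats each mouse as independent, so a cage effect shared within a diet group cannot be told apart from diet. The p values measure the spread between these mice. The fit was tested on simulated data.

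Steps of low genes are the largest FPKM of which every value is a whole multiple within rounding and the spread in depth. Named outside the 10 genes are up to 4 called genes per pathway list, by size of change, set relatives of the 10, and the 3 genes most like Ucp2 and Cox8b. The genes and lists were chosen with earlier results of these data known. Plots were made in Python 3.11.15 with matplotlib 3.10.9.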

Additional observations from a re-analysis of the deposited data

Results flagged for a closer look

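Of 40 sets of values, 1 per gene and diet group, 3 had a mouse far from the others of its group, where chance flags about 1 in 20 groups. Dio2 was at 1.11 FPKM in LowMg-HFD mouse 4 and at 0.12 to 0.23 in the other 4 mice of that group. The same mouse held 3468 FPKM of the 8 testis markers, against 2.96 to 38.6 in the other 4, and the part of those markers was not tested. Elovl3 was at 0.24 FPKM in NormMg-LFD mouse 4 and listed at 0 in the other 3, which is a difference of about 2 reads. Elovl3 was at 1.04 FPKM in LowMg-LFD mouse 1 and at 0 to 0.23 in the other 4 mice, and that mouse was also the highest of all in Cidea and Cox8b. Its testis marker sum was 172 FPKM, against 8.06 to 43.5 in the other 4, while NormMg-LFD mouse 5, with 725, had Elovl3 listed at 0, and the part of those markers was not tested.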

How the results depend on the processing

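For the 10 genes, 41 results were recomputed under 764 alternatives, of which 720 kept their direction and their side of the threshold, 9 lost a call, 8 gained one and 27 turned in direction, the last all in differences that were not called. Ppargc1b for fat on NormMg diets lost its call among all genes (-0.54, adjusted p = 0.0684) and with only the groups compared (-0.54, adjusted p = 0.0606), and ranged from -0.71 to -0.43 with each mouse left out in turn. Ppargc1a ranged from -0.77 to -0.48 in the same way and lost its call without NormMg-LFD mouse 4. Turned differences were Ppargc1a for Mg2+ on the LFD (0.0741 with median centring, 0.13 with quantile normalization, -0.12 to 0.17 leaving mice out), Prdm16 for Mg2+ on the HFD (0.0028 with centring, -0.20 to 0.10 leaving mice out, 0.0494 without the 3 mice highest in pancreas, epididymis and testis markers), and Elovl3 for fat on LowMg diets (-0.16 with centring, -0.0566 with quantile normalization, -0.0731 without those 3 mice, -0.0534 without the LowMg-HFD mouse highest in pancreas markers, -0.0534 to 0.23 leaving mice out). Ucp1 for fat on LowMg diets was -0.0727 with centring, Ppargc1b for Mg2+ on the HFD was -0.043 without the LowMg-HFD mouse highest in pancreas markers and -0.0488 to 0.11 leaving mice out, and Cox8b for Mg2+ on the HFD ranged from -0.41 to 0.0698. The cause was not tested. Mice left out were those of the groups compared. The alternative without the 3 mice was chosen after seeing the data.

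Numbers of genes called over 8 FPKM were 3114 for fat on NormMg diets (2627 to 3109 leaving out mice of the 2 groups compared, up to 3266 leaving out any mouse), 1542 for Mg2+ on the HFD (921 to 1624, and up to 1644, the lowest without NormMg-HFD mouse 3), 1329 for fat on LowMg diets (800 to 1468; 866, 800 and 834 without LowMg-HFD mouse 1, LowMg-HFD mouse 2 or LowMg-LFD mouse 1, 665 with only the groups compared) and 0 for Mg2+ on the LFD (547 at an unadjusted p under 0.05, and 1 gene called among all genes). Without the LowMg-HFD mouse highest in pancreas markers, mouse 2, fat on LowMg diets gave 800. The interaction, 104 genes, was unstable: 0 to 482 leaving mice out, 2 among all genes, 48 over 1 FPKM, 245 with centring, 67 without the intensity trend, 24 with a pseudocount of 0.1, 347 with quantile normalization, 482 without the LowMg-HFD mouse highest in pancreas markers and 0 without the 3 mice.

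Most samples with the same replicate number did not deviate together (27 pairs, correlations from -0.18 to 0.34, median 0.0032, 5 over 0.1). The highest were between NormMg-LFD mouse 4 and LowMg-LFD mouse 4 (0.34) and between NormMg-LFD mouse 4 and LowMg-HFD mouse 4 (0.26). The other pairs of mice numbered 4 lay between -0.09 and 0.07. Whether mice of the same number share more than the number was not tested. With the replicate number as a block, 0 interactions were called, and 3027, 1466, 1263 and 0 genes for fat on NormMg diets, Mg2+ on the HFD, fat on LowMg diets and Mg2+ on the LFD. No call of the 10 genes was lost or gained under the block. Low levels limit Ucp1, Dio2 and Elovl3, for which 1 read shifts a value visibly.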
